A study of Homo sapiens with 6 samples.

Results

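The 10 genes described here encode proteins that bind along or between actin filaments. They are the 4 tropomyosins TPM1 to TPM4, the 3 calponins CNN1 to CNN3, the transgelins TAGLN and TAGLN2, and the crosslinker ACTN1. They were chosen by name, as the rows of the deposited tables whose Ensembl identifier maps to these symbols, and are 10 of the 61496 features listed. Earlier results of these data were known at that choice, so counts over the 10 genes describe them and test nothing about the family. All 10 passed the filter on low counts and were tested.

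Cells of U251, an established human glioma cell line, were sequenced in 3 libraries labelled untreated (control) and 3 libraries labelled as exposed to sevoflurane (Sev), an inhaled anesthetic, for 2 h. All 6 come from the same line, grown in the same serum-containing medium, and the labels give no genetic change in either group. The treatment protocol in the labels lists Sev gas at 1.7%, 3.4% and 5.1% and assigns none to a single library, while the study describes the sequenced Sev cells as treated at the highest of these. The 3 Sev libraries share 1 label and are treated as replicates. The study's methods speak of independent experiments for its quantitative data in general, and neither they nor the labels say whether the sequenced libraries of a group came from separate cultures. The p-values measure only the spread between these libraries, which may be technical.

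Tropomyosins are coiled-coil dimers that lie end to end in the groove of the actin filament and control which other proteins, myosin among them, can reach it. Each of the 4 genes makes several isoforms from alternative starts and exons, and the different isoforms mark different filament populations in a cell, stress fibers in particular. Calponins and transgelins share a calponin-homology domain and stabilize or bundle filaments, while alpha-actinins link filaments side by side in stress fibers and focal adhesions. Several of these genes are classical targets of serum response factor (SRF) and its actin-sensing cofactors, the MRTFs, which read a short DNA element called the CArG box. TAGLN and CNN1 are known as markers of smooth muscle and of contractile, myofibroblast-like cells.

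The promoters are shown first because that element is the best known shared control of the group. Promoter windows of 300 bases, from 250 before to 50 after an annotated start site, were available from RefSeq (GRCh38.p14) for 9 of the 10 genes. TAGLN had no entry. A CArG box was searched on both strands and was found in 3 of the 19 windows of these genes, which is 15.8%, against 1.29% of the 35116 windows of all genes. The matches lay at TPM4, CNN2 and ACTN1, and the windows are printed 5′ to 3′ on the strand of the gene with the CArG box in capitals. The window of TPM4 is chr19:16067288-16067587 on the plus strand, at the most upstream of its 3 windows. The window of CNN2 is chr19:1026358-1026657 on the plus strand, and it is the only one of that gene. The window of ACTN1 is chr14:68977517-68977816 on the minus strand, at the third of its 4 windows from the upstream end. The windows of TPM4 and ACTN1 lie inside the span of the gene in GENCODE 29, and that of CNN2 crosses its first base.
TPM4: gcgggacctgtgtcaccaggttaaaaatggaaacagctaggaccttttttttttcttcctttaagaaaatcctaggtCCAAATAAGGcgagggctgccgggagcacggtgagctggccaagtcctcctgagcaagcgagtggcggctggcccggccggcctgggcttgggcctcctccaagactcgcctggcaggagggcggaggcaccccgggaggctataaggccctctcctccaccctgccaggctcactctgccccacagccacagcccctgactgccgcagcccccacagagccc
CNN2: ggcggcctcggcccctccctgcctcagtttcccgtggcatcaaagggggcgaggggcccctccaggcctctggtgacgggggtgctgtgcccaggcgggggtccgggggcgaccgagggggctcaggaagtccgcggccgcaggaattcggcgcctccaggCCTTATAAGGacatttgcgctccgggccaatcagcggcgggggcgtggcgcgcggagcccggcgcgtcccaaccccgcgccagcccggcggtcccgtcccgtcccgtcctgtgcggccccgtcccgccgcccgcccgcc
ACTN1: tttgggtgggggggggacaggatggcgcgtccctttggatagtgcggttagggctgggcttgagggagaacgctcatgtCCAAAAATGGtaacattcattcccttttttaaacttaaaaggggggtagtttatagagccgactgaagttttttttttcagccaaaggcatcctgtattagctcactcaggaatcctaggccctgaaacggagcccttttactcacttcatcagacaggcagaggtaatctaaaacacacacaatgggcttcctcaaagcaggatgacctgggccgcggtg
The match CCAAATAAGG of TPM4 began 173 bases before the start site, CCTTATAAGG of CNN2 began 89 bases before it and CCAAAAATGG of ACTN1 began 171 bases before it. A match is a description of letters and not an occupied site. The genes with a match did not share a direction of change, since CNN2 and ACTN1 were higher and TPM4 was lower in Sev. Counts are per gene, and TPM4 and ACTN1 have other windows without a match, so their changes cannot be assigned to the start site with the element. The 6-letter core of the TEAD element, CATTCC on either strand, was in 2 of the 19 windows, at CNN3 and in the same window of ACTN1, and in 14% of all windows. The SP1 element GGGCGG, also on either strand, was in 15 of the 19 windows and in at least 1 window of each of the 9 genes, against 45% of all windows.

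The libraries held between 38624292 and 46318311 counts, and the 10 most abundant features took 8.62% to 10.3% of them. Levels within a gene are given as CPM, counts scaled to the size of the library after TMM normalization, which sets the libraries on a common scale, and the groups were compared with the quasi-likelihood test of edgeR, adjusted by Benjamini-Hochberg over the 27514 tested features. A gene is called higher or lower at an adjusted p-value under 0.05. TMM moved the median feature by 0.14 on the log2 scale relative to scaling by library size only, in favor of the Sev libraries, so a change of that size depends on the scaling. With library size only, 4665 features were called higher and 7502 lower, in place of 6094 and 5920.

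After Sev, 8 of the 10 genes were higher, 1 was lower and 1 was not called. The higher genes were TPM1, TPM3, the 3 calponins, both transgelins and ACTN1, and the lower gene was TPM4. Over all tested features, 43.7% were called, 22.1% as higher and 21.5% as lower. The median log2 fold change was 0.38 over the 10 genes, with quartiles at 0.31 and 0.57, and −0.0056 over all tested features. The study's own threshold, a log2 fold change over 1 in size with an unadjusted p-value under 0.05, was passed by CNN1 and TAGLN alone of the 10, against 23.5% of all features. The 6 other higher genes rose by less than that. With library size only, 6 of the 10 genes were called higher and 1 lower, TPM3 and CNN3 being the calls lost. On the authors' FPKM values, which are scaled to library totals, limma on log2(FPKM + 1) called 5 higher (TPM1, CNN2, TAGLN, TAGLN2 and ACTN1) and TPM4 lower, with CNN1 below the filter on low values. In bulk RNA, fewer cells of a type and less RNA per cell cannot be told apart.

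**Figure D1:**
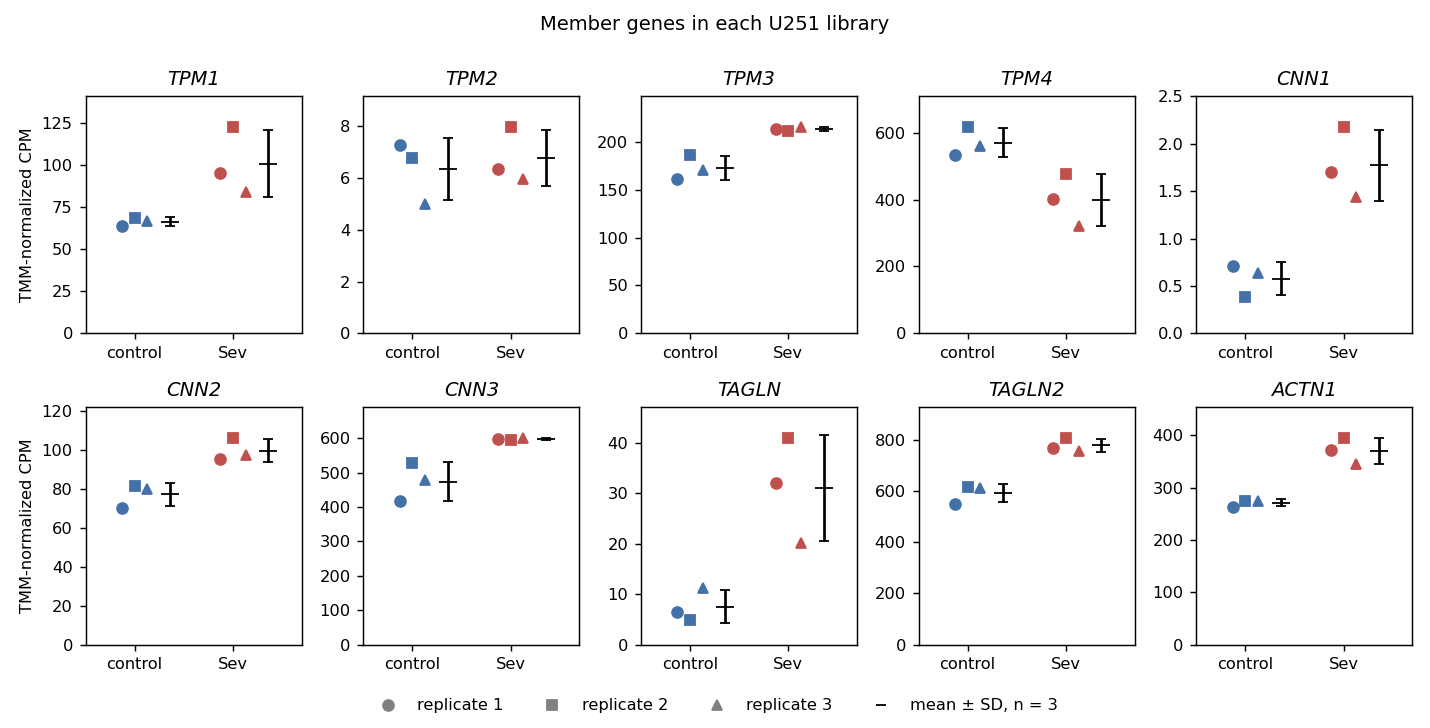
TMM-normalized CPM of the 10 genes (vertical axes, each starting at 0) in the control and Sev libraries, with a marker shape for each replicate and the mean ± SD of 3 libraries in black. The groups do not overlap for 9 of the genes, with the Sev libraries below the control libraries only for TPM4, and they overlap for TPM2.

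TPM4 (ENSG00000167460, chromosome 19, 16067021 to 16103005, GRCh38) was the tropomyosin gene with the highest level per length in U251 and the only member that fell. It had 532, 619 and 561 CPM in the control libraries and 401, 477 and 320 CPM in the Sev libraries. Each Sev library lay below each control library, and Sev replicate 3 was the lowest. The mean fell from 571 ± 44.0 to 399 ± 78.4 CPM (SD, n = 3), a change of −30.1% (95% interval of the fold 0.555 to 0.881), or −0.52 on the log2 scale (standard error 0.14, edgeR adjusted p = 0.0217). The call was lost when control replicate 2, control replicate 3 or Sev replicate 1 was left out, with edgeR adjusted p-values of 0.0650, 0.0536 and 0.0623, while the fold change stayed between −0.66 and −0.38 over the 6 such fits. With library size only the fall was larger, −0.66.

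TPM1 (ENSG00000140416, chromosome 15, 63042632 to 63071915), which encodes isoforms of muscle and of stress fibers, moved the other way. Its CPM was 63.7, 68.9 and 66.6 in control and 95.6, 123 and 84.3 in Sev. The control libraries lay close together and the Sev libraries were spread, with replicate 2 the highest. The means were 66.4 ± 2.59 and 101 ± 19.9 CPM, a rise of 52.1% and a log2 fold change of 0.60 (standard error 0.14, edgeR adjusted p = 0.00915). By limma on log2(FPKM + 1) it was 0.37, and the call was lost there with no filter (adjusted p = 0.0513). An antisense gene, TPM1-AS, overlaps exons of TPM1 by 2070 bases and had up to 16.6% as many counts. Its mean went from 9.95 to 14.9 CPM, which did not pass the test (log2 fold change 0.58, edgeR adjusted p = 0.0831). The library protocol in the labels is strand-specific, but whether the counting used the strand is not given in the sources used here.

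TPM3 (ENSG00000143549, chromosome 1, 154155304 to 154194648), expressed in slow muscle and in most nonmuscle cells, had 161, 186 and 171 CPM in control and 214, 212 and 216 CPM in Sev. The Sev libraries were nearly equal and all lay above the control libraries. The log2 fold change was 0.31 (standard error 0.078, edgeR adjusted p = 0.0150), and it was 0.17 with library size only, where the call was lost (adjusted p = 0.101). It was also lost without control replicate 3 (0.0646) or Sev replicate 1 (0.0547), as edgeR adjusted p-values.

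TPM2 (ENSG00000198467, chromosome 9, 35681992 to 35690121), the isoform gene best known from muscle, was at a low level with 236 to 307 counts per library. It had 7.26, 6.76 and 5.01 CPM in control and 6.35, 7.98 and 5.96 CPM in Sev. The groups overlapped throughout. Its log2 fold change was 0.093 (95% interval −0.35 to 0.54, edgeR adjusted p = 0.723) and changed sign to −0.054 with library size only, so neither a fall nor a rise within that interval can be told from no change.

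Among the calponins, CNN1 (ENSG00000130176, chromosome 19, 11538717 to 11550323), the calponin of smooth muscle, was barely detected in control cells. It had 30, 15 and 31 counts in the control libraries and 64, 82 and 57 in the Sev libraries. In CPM these were 0.709, 0.379 and 0.639 against 1.70, 2.18 and 1.44, and the groups did not overlap. The fitted fold was 3.06 (95% interval 1.88 to 4.97), a log2 fold change of 1.61 (standard error 0.30, edgeR adjusted p = 0.00422), and the call held in each of the 6 fits without a library. On log2(FPKM + 1) with no filter, where the pseudocount shrinks differences of genes near 0, limma gave 0.33, under the study's threshold.

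CNN2 (ENSG00000064666, chromosome 19, 1026581 to 1039068), a calponin of many nonmuscle cells, was higher in each Sev library, with 70.1, 81.1 and 79.9 CPM in control and 95.01, 106 and 97.1 CPM in Sev. Its log2 fold change was 0.37 (standard error 0.090, edgeR adjusted p = 0.0129). It was 0.23 with library size only (adjusted p = 0.0495) and 0.21 by limma on log2(FPKM + 1), where the call was lost with no filter (adjusted p = 0.0548). Pseudogene copies named after CNN2 held 1.77% to 4.79% of the counts summed over CNN2 and the copies, and 1 of the 11, CNN2P1, was at 0.798 CPM in control and 3.70 CPM in Sev (log2 fold change 2.21, edgeR adjusted p = 0.000166).

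CNN3 (ENSG00000117519, chromosome 1, 94896949 to 94927278), the acidic calponin that is abundant in brain, had 416, 528 and 477 CPM in control and 597, 596 and 601 CPM in Sev. The 3 Sev libraries had an SD of 2.62 CPM against 55.9 CPM in control, and the lowest of them was above the highest control library. The log2 fold change was 0.34 (standard error 0.099, edgeR adjusted p = 0.0259). This was the least stable of the higher genes, since the call was lost in 4 of the 6 fits without a library, those without control replicate 1, control replicate 3, Sev replicate 1 or Sev replicate 3 (edgeR adjusted p up to 0.0778), and with library size only (log2 fold change 0.20, adjusted p = 0.0993).

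TAGLN (ENSG00000149591, chromosome 11, 117199321 to 117204782), which encodes SM22, a filament-bundling protein of smooth muscle, had the largest fold change of the 10. It had 6.48, 4.85 and 11.1 CPM in control and 32.0, 40.9 and 20.1 CPM in Sev. On the log2 scale both groups were spread more widely than for the 9 other members, and the lowest Sev library was still above the highest control library. The means of 7.48 ± 3.26 and 31.0 ± 10.5 CPM went with a fitted fold of 4.13 (95% interval 2.35 to 7.26), a log2 fold change of 2.05 (standard error 0.35, edgeR adjusted p = 0.00287). Over the 6 fits without a library it ran from 1.80 to 2.45 and kept the call, and limma on log2(FPKM + 1) gave 1.22. PCSK7, a protease gene on the opposite strand, overlaps 446 exonic bases of TAGLN and had more counts than it in each library, but its mean was 93.1 CPM in control and 95.8 CPM in Sev (log2 fold change 0.042, edgeR adjusted p = 0.668).

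TAGLN2 (ENSG00000158710, chromosome 1, 159918107 to 159925732), the widely expressed transgelin, was the most abundant member. It had 551, 615 and 611 CPM in control and 769, 809 and 759 CPM in Sev, with no overlap. Its log2 fold change of 0.39 (standard error 0.081, edgeR adjusted p = 0.00623) held in the 6 fits without a library and with library size only (0.25), and was lost by limma on log2(FPKM + 1) with no filter (0.25, adjusted p = 0.0503).

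ACTN1 (ENSG00000072110, chromosome 14, 68874143 to 68979440) encodes alpha-actinin-1, the crosslinker of stress fibers and focal adhesions. Its CPM was 263, 275 and 274 in control and 371, 395 and 345 in Sev. The control libraries lay close together, with an SD of 6.91 CPM, and all were below the Sev libraries. The log2 fold change was 0.45 (standard error 0.079, edgeR adjusted p = 0.00306), and the call held in each of the 6 fits without a library and with library size only (0.31), and limma on log2(FPKM + 1) gave 0.29 (adjusted p = 0.00609). Its paralog ACTN4, not one of the 10, had a log2 fold change of 0.36 (edgeR adjusted p = 0.0166).

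The groups did not overlap in CPM for 9 of the 10 genes, 8 of them higher in Sev. Without overlap were 56.5% of all tested features, 28.3% with Sev higher and 28.2% with Sev lower.

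**Figure D2:**
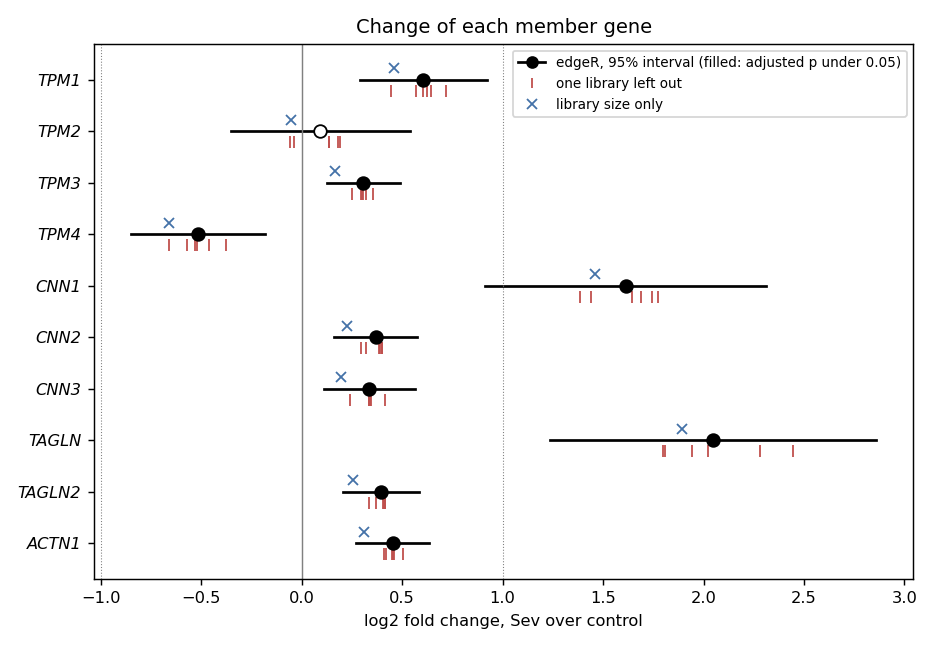
Log2 fold change of each gene, Sev over control (horizontal axis), with the edgeR estimate and its 95% interval in black, filled where the adjusted p-value was under 0.05. Red ticks are the 6 fits with 1 library left out, blue crosses are the fit with library size only, and dotted lines mark 1 and −1. TAGLN and CNN1 lie beyond 1, TPM4 is the only filled point below 0, and TPM2 spans 0.

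To compare levels between genes, the authors' FPKM values were used, which divide counts by gene length. In control cells the order of mean FPKM was TAGLN2 at 203, CNN3 at 145, TPM4 at 39.2, ACTN1 at 21.7, CNN2 at 18.0, TPM3 at 9.68, TPM1 at 4.09, TPM2 at 1.68, TAGLN at 0.964 and CNN1 at 0.166. Neighbors in this order did not overlap between control libraries except TPM2, at 1.31 to 1.97 FPKM, and TAGLN, at 0.609 to 1.43 FPKM. In Sev, TPM4 at 20.6 to 28.6 FPKM overlapped ACTN1 at 25.9 to 27.7 FPKM and CNN2 at 20.2 to 21.7 FPKM, and TAGLN at 2.43 to 4.64 FPKM was above TPM2 at 1.47 to 1.85 FPKM. The lengths that the FPKM values imply were within 10% of the exon union of GENCODE 29 for 91.1% of genes, but were 1.80 times that union for TPM3, 1.43 times for TPM4 and 1.68 times for TAGLN. With CPM per kilobase of the GENCODE 29 exon union in its place, the control order of the 10 genes was the same, while TPM3 (19.2 to 22.2 CPM per kilobase) and CNN2 (19.2 to 22.3) then overlapped. In Sev, TPM4 (37.05 to 55.2 CPM per kilobase) then lay above ACTN1 (32.5 to 37.2) in mean and above CNN2 (26.1 to 29.1) without overlap, and TAGLN (5.12 to 10.5) overlapped TPM1 (6.55 to 9.55).

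TPM4 fell while TPM1 and TPM3 rose, and the makeup of the family differed between the groups. TPM4 made up 71.1%, 72.1% and 72.0% of the summed FPKM of the 4 genes in the control libraries and 58.5%, 60.3% and 53.8% in the Sev libraries. TPM3 made up 17.6%, 17.7% and 17.9% in control and 25.5%, 21.9% and 29.7% in Sev. TPM1 went from 7.62%, 7.18% and 7.66% to 12.5%, 14.0% and 12.7%. The control libraries agreed to within about a percentage point for these genes, and the groups were apart for all 3, while TPM2 went from a mean of 3.08% to 3.76% with overlap. The difference in mean share was −14.2 percentage points for TPM4, 7.94 for TPM3 and 5.58 for TPM1, each at an exact two-sided permutation p = 0.1, the smallest that 3 libraries against 3 allow (0.133 adjusted over the 4 genes). For TPM2 it was 0.684 (exact permutation p = 0.2), or 0.375 without control replicate 3. With counts per kilobase of the GENCODE 29 exon union the TPM4 share was 70.5% and 56.3%, nearly as with FPKM.

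**Figure D3:**
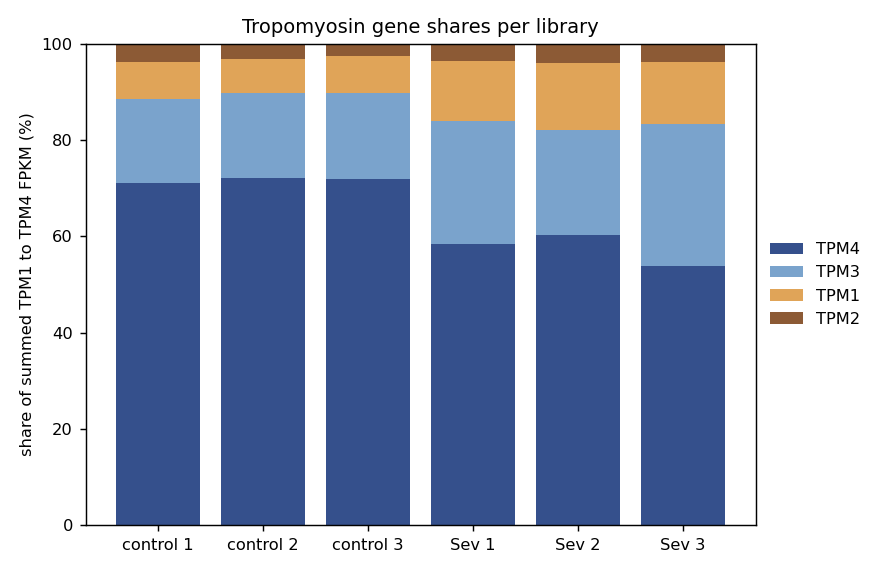
Share of TPM1, TPM2, TPM3 and TPM4 in their summed FPKM (vertical axis, percent) in each of the 6 libraries (bars). The TPM4 segment takes 71.1% to 72.1% of the control bars and 53.8% to 60.3% of the Sev bars, with larger TPM3 and TPM1 segments in Sev.

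The summed tropomyosin FPKM was 54.6 ± 2.86 in control and 42.8 ± 4.62 in Sev (SD, n = 3), a log2 ratio of −0.35 (exact permutation p = 0.1, the smallest possible). On the scale of TMM-normalized CPM per kilobase the log2 ratio was −0.20 and the groups overlapped, with 88.1 to 101 against 71.2 to 92.4 (exact permutation p = 0.3). Dividing the FPKM values by the TMM factors alone gave −0.21 (exact permutation p = 0.3), while taking GENCODE 29 lengths alone, with library size only, gave −0.35 (exact permutation p = 0.1). The size of the difference in the total thus moved with the scaling of libraries, on which shares do not depend. Among the calponins, CNN3 made up 88.8% ± 0.526 of their summed FPKM in control and 88.5% ± 0.660 in Sev (exact permutation p = 0.6). CNN1 was a trace of that sum in both groups, at 0.141%, 0.0607% and 0.112% in control and 0.240%, 0.312% and 0.203% in Sev, without overlap (exact permutation p = 0.1, the smallest possible). TAGLN remained a small part of the transgelins, at 0.294% to 0.680% in control and 0.990% to 1.88% in Sev. With GENCODE 29 lengths these shares were 0.498% to 1.14% and 1.65% to 3.11%.

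Ratios between paralogs, which do not depend on the scaling of libraries, were compared for 11 pairs by an exact two-sided permutation test. The groups were apart for 7 of the 11, each at an exact permutation p = 0.1, the smallest possible (0.157 adjusted over the 11 pairs). Of all tested features, 56.5% were without overlap in CPM, a share for single genes and not for ratios. The 7 pairs are not independent, since several share TPM4 or CNN1. The log2 ratio of TPM1 to TPM4 was −3.22, −3.33 and −3.23 in control and −2.22, −2.11 and −2.08 in Sev, a difference of 1.12 that was large against the SDs of 0.0588 and 0.0752. The difference was 0.84 for TPM3 to TPM4, 0.63 for TPM2 to TPM4 and 0.49 for TPM1 to TPM2. It was 1.69 for TAGLN to TAGLN2, 1.31 for CNN1 to CNN2 and 1.34 for CNN1 to CNN3. In 4 pairs the groups overlapped, with differences of 0.28 for TPM1 to TPM3, −0.21 for TPM2 to TPM3, 0.025 for CNN2 to CNN3 and 0.089 for ACTN1 to ACTN4 (exact permutation p from 0.2 to 0.8). With 1 library left out these ran from 0.12 (without Sev replicate 2) to 0.41 for TPM1 to TPM3, from −0.37 to −0.055 (without control replicate 1) for TPM2 to TPM3 and from 0.027 (without control replicate 2) to 0.13 for ACTN1 to ACTN4. For CNN2 to CNN3, with values from −3.09 to −2.96 in control and −3.04 to −2.88 in Sev, the difference was within the SDs of 0.0728 and 0.0880.

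Among the 3 Sev libraries, replicate 2 had the highest CPM of 8 of the 10 genes, TPM3 and CNN3 being the exceptions, and replicate 3 had the lowest of 7. Of all tested features, 37.5% were highest in Sev replicate 2 and 35.4% lowest in Sev replicate 3. The spread was widest for TAGLN, at 0.46 and −0.57 from the mean of the Sev libraries on the log2 scale in replicates 2 and 3. TPM4 had 0.27 and −0.30, and TPM1 had 0.30 and −0.24. TPM4 had the same order of Sev libraries as TAGLN, although it changed in the other direction between the groups. In the control libraries, replicate 2 had the highest CPM of 7 genes and replicate 1 the lowest of 7, against 33.2% and 35.5% of all tested features. The share of mitochondrial transcripts was 1.13%, 1.36% and 1.33% in Sev replicates 1 to 3 and 1.74%, 1.76% and 1.35% in control replicates 1 to 3. It was highest in replicate 2 of each group. The TMM factors, by which CPM is divided, were 0.952, 0.918 and 0.988 in Sev and 1.075, 1.027 and 1.049 in control. They were lowest in replicate 2 of each group. Whether either bears on the order of the libraries was not tested.

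**Figure D4:**
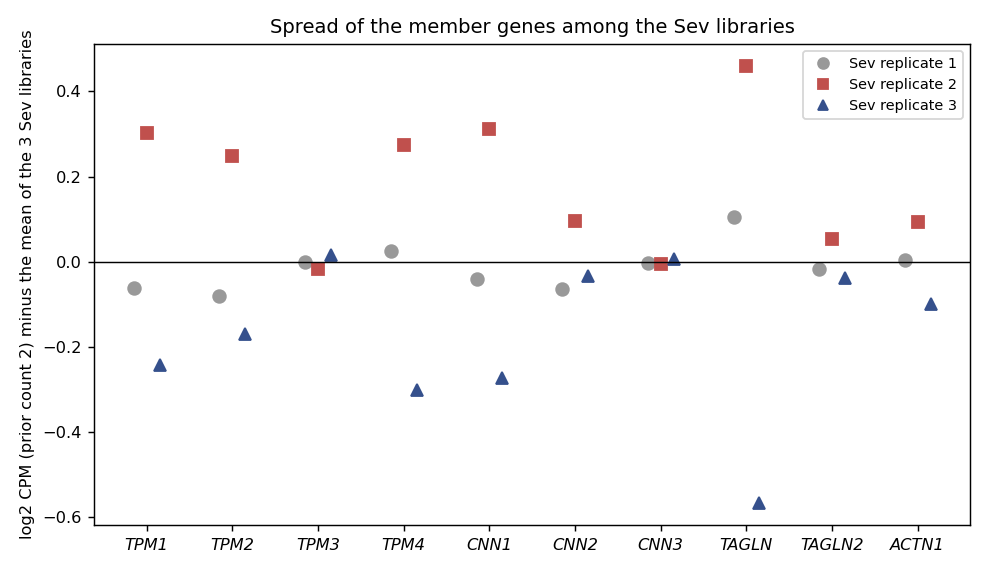
Deviation of each Sev library from the mean of the 3 Sev libraries, in log2 CPM with a prior count of 2 (vertical axis), for the 10 genes (horizontal axis). Replicate 2 lies above 0 for 8 genes and replicate 3 lies below 0 for the same genes, with the widest gap at TAGLN, while TPM3 and CNN3 are within 0.02 of 0.

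Other genes of the actin filament were read in 7 lists, beside the 22.1% of all tested features called higher and the 21.5% called lower. Among the 6 actin isoform genes, the cytoplasmic actins ACTB (3812 ± 907 and 3762 ± 267 CPM, log2 fold change −0.019) and ACTG1 (2171 ± 177 and 2571 ± 266 CPM, 0.24) did not pass the edgeR test, with adjusted p-values of 0.940 and 0.109. The smooth muscle actin ACTA2, at 4.68 and 4.26 CPM, did not pass it either (adjusted p = 0.480). The 3 actin genes that were higher, ACTG2, ACTA1 and ACTC1, were at low levels, and ACTC1, the cardiac actin, went from 0.126 to 0.166 CPM in the control libraries to 1.62 to 2.24 CPM in the Sev libraries (edgeR log2 fold change 3.72, adjusted p = 0.000129).

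Of 22 tested crosslinkers of actin filaments, 9 were higher and 0 lower, against 22.1% and 21.5% of all tested features. Their median log2 fold change was 0.28. At an unadjusted edgeR p under 0.05, 10 were higher and 0 lower, a cutoff for which the share over all features was not counted. DESeq2 called 9 higher and 0 lower, and 6313 higher and 5451 lower over all features. Both are further readings of the same counts. CALD1, the caldesmon that binds actin together with tropomyosin, rose from 84.5 ± 14.3 to 155 ± 13.4 CPM (log2 fold change 0.88, edgeR adjusted p = 0.00173), and ACTN3, an alpha-actinin of fast muscle, from 0.411 to 2.56 CPM. TAGLN3, the neuronal transgelin, had at most 7 counts in a library and was not tested. In the list of myosin II and its control, 3 of 19 were higher and 2 lower, smaller shares than the 22.1% and 21.5% of all tested features. DAPK3, a kinase of the myosin light chain, was at a log2 fold change of 1.12 (edgeR adjusted p = 0.000962) and CIT, citron kinase, at −0.63 (adjusted p = 0.0012). The light chain MYL9 had at most 15 counts in a library and was not tested. Of 31 genes for filament ends and turnover, 12 were higher and 3 lower, against 22.1% and 21.5% of all tested features. Among those called were SSH2, a cofilin phosphatase (log2 fold change 0.53), and DIAPH2, a formin (−0.60).

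Of 4 tested SRF and MRTF factors, 1 was higher and 1 lower, against 22.1% and 21.5% of all tested features. SRF was higher, from 66.1 ± 2.93 to 84.9 ± 4.77 CPM (log2 fold change 0.36, edgeR adjusted p = 0.00908), its cofactor MRTFA had 41.99 and 47.5 CPM (0.18, adjusted p = 0.299), the related cofactor MRTFB had 66.7 and 45.7 CPM (−0.54, adjusted p = 0.0528), and SCAI, a repressor of MRTF activity, was lower (−0.49, adjusted p = 0.0245). Of 19 adhesion and matricellular genes known as SRF or YAP targets, 8 were higher and 1 lower, against 22.1% and 21.5% of all tested features. Their median log2 fold change was 0.32. CCN2, a matricellular protein, rose from 771 ± 110 to 2653 ± 231 CPM (log2 fold change 1.78, edgeR adjusted p = 0.000112), and CSRP2, a LIM protein of smooth muscle, fell by 0.88 on the log2 scale (adjusted p = 0.00174). The troponins, partners of tropomyosin in striated muscle, were at low levels except TNNT1, at 17.3 to 20.5 CPM. Of 8 listed, 4 were tested and 2 were higher, against 22.1% of all tested features. TNNI1 was among them, with 0 to 0.126 CPM in the control libraries and 1.52 to 2.73 CPM in the Sev libraries.

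**Figure D5:**
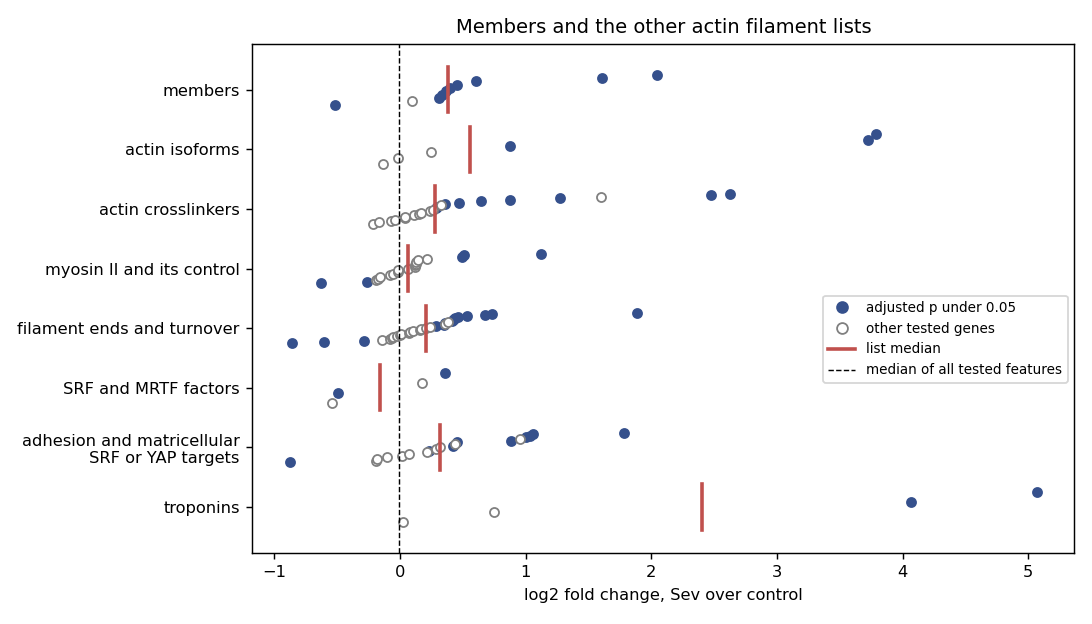
Log2 fold change, Sev over control (horizontal axis), of each tested gene in the 10 members and the 7 other lists (rows), filled where the edgeR adjusted p-value was under 0.05. Red bars are list medians and the dashed line is the median of all tested features, −0.0056. The members center on 0.38 and the myosin list on 0.061, and the 2 troponins at the far right are fitted values of genes with almost no control counts.

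The libraries carried the transcripts of a glial tumor line. The astroglial and glioma markers summed to 7855 to 8774 CPM in control and 8895 to 9386 CPM in Sev. Most of it was VIM, with means of 5485 and 6150 CPM, followed by NES and CD44, so the sum says little of the other markers. GFAP was at 270 and 275 CPM. Of these 10 markers CD44 was higher, while SOX2, S100B and OLIG2 were lower. AQP4 alone stayed under 1 CPM in every library. Since TAGLN and CNN1 also mark smooth muscle, its list was measured beside them. It summed to 140 to 157 CPM in control and 133 to 163 CPM in Sev, most of it SYNM (95.8 and 103 CPM) and SMTN (36.9 and 25.8 CPM), so the sum says little of the low genes. DES and MYOCD had at most 5 counts in a library, and MYH11, the smooth muscle myosin, had 7.23 and 6.22 CPM (edgeR adjusted p = 0.304). LMOD1 and ACTG2 of the 8 listed genes were higher and SMTN was lower. The fibroblast list summed to 1658 to 1972 CPM in control and 1184 to 1929 CPM in Sev, nearly all of it COL1A2, which was lower (edgeR adjusted p = 0.0358), PDGFRA and THY1, and DCN and LUM had at most 6 counts in a library, and the epithelial list to 7.13 to 8.23 and 5.07 to 8.28 CPM. The lists for skeletal muscle (0.762 to 0.969 CPM in control and 1.83 to 2.82 CPM in Sev), leukocytes (2.30 to 4.78 and 6.12 to 8.002 CPM) and endothelium (38.5 to 41.4 and 49.2 to 64.1 CPM) were low in both groups, with the Sev range above the control range. In them CKM, PECAM1, KDR and ITGAM were higher, and MYH1, MYH7, MYOD1 and CD3E were at 0 in all 6 libraries. Their part in the changes of the members was not tested.

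Little sequence was shared with other genes. Of the distinct stretches of 100 bases in the GENCODE 29 transcripts of each gene, between 0 and 1.75% also occurred in a transcript of another gene, and no tropomyosin, calponin or transgelin gene shared such a stretch with another member. The pseudogene copies named after TPM3 held 4.74% to 6.75% of the counts summed over the gene and its copies, and those of TPM4 0.875% to 1.58%. For TPM2 its single copy held 5.96% to 15%, although TPM2 shared no such stretch of 100 bases with another gene. Whether reads of the copy and the gene were exchanged was not tested. The table counts per gene, and the isoforms of a tropomyosin gene could not be told apart.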

How the data were processed

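RNA of 6 U251 libraries, 3 control and 3 Sev, was sequenced, and groups were taken from the labels. Per the labels, the authors' processing notes name bcl2fastq 2.19, featureCounts and the build hg18, with no role given. The deposited tables hold raw counts per gene and FPKM values made by the authors. The FPKM table is no independent measurement, since counts over FPKM gave a constant length per gene in the libraries (median coefficient of variation 0.38%).

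Counts were filtered by filterByExpr, normalized by TMM and tested by the quasi-likelihood test of edgeR 4.0.16 in R 4.3.3, with only the group as a term and Benjamini-Hochberg adjustment over 27514 features. Shares and ratios were compared by exact two-sided permutation tests (scipy 1.17.1). The code was tested on simulated data. The alternatives were library size only, DESeq2 1.42.0 and its size factors, other filters, a replicate block, limma 3.58.1 on log2(FPKM + 1) and log2(FPKM + 0.1), and each library left out. Other scales of the summed tropomyosins were added after seeing the data.

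The files give no coordinates. Of 60564 Ensembl identifiers 60295 matched a symbol, and positions are those of GENCODE 29 (GRCh38) for the same identifier. The build used by the authors for these tables could not be settled. The members and lists were chosen with earlier results of these data known. Other genes were named as the lowest p-value in each direction of each list, beside a fixed set. Genes named beside a count of 5 or fewer, and MRTFB and TNNT1, were chosen after their values were seen. Total counts of 38624292 to 46318311 limit only the low genes, such as CNN1. Intervals of folds come from the edgeR fit and reflect the spread between libraries.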

Additional observations from a re-analysis of the deposited data

How the results depend on the processing

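The log2 fold changes of the members kept their direction under the alternatives except for TPM2, which turned to −0.054 with library size only, −0.032, −0.045 and −0.032 by limma on log2(FPKM + 1), log2(FPKM + 0.1) and log2(FPKM + 1) with no filter, −0.058 without control replicate 3 and −0.039 without Sev replicate 2. With 1 library left out at a time TPM2 ran from −0.058 to 0.19. The difference in the ratio of CNN2 to CNN3 ran from −0.026 to 0.055 in those fits and was below 0 when replicate 2 of Sev (−0.026) or of control (−0.017) was missing. Calls were lost with library size only for TPM3 (0.17) and CNN3 (0.20), by limma in the 3 FPKM settings for TPM3 (0.15, 0.16 and 0.15) and CNN3 (0.20 in each), and by limma with no filter also for TPM1 (0.37), CNN2 (0.21) and TAGLN2 (0.25), with adjusted p-values of 0.0513, 0.0548 and 0.0503. CNN1 kept its call by limma with no filter at 0.33, in place of 1.61, and TAGLN was at 1.22 on log2(FPKM + 1) and 1.83 on log2(FPKM + 0.1), in place of 2.05. The members called higher were then 5, 5 and 3 in those 3 settings. Leaving out 1 library at a time gave 6 to 8 members higher and 0 to 1 lower. Over all features those fits called 4780 to 5709 higher and 4438 to 5521 lower, against 6094 and 5920 with every library. The log2 fold changes ranged from 0.25 to 0.36 for TPM3, −0.66 to −0.38 for TPM4 and 0.24 to 0.41 for CNN3. By limma on FPKM, 3676 and 3623 features were called higher and 6709 and 6530 lower with a pseudocount of 1 and 0.1. Past the study's threshold were 1691 higher and 2148 lower with at least 10 counts in every library, 579 higher and 690 lower by limma on log2(FPKM + 1), 1476 higher and 2973 lower on log2(FPKM + 0.1), and 579 higher and 691 lower with no filter, against 3147 and 3315. The difference in TPM1 share was 4.05 percentage points with GENCODE 29 lengths in place of 5.58, and the summed tropomyosin ratio, −0.35, was −0.20 with TMM scaling and GENCODE 29 lengths together, −0.21 with TMM scaling alone and −0.35 with the lengths alone. Apart from that ratio, the causes were not tested.

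Replicate numbers are shared between the groups, but same-numbered libraries did not deviate together, with correlations from −0.0072 to 0.027. A fit with the replicate block called 5228 features higher and 5021 lower, and 8 members higher and 1 lower.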
